A study of Mus musculus with 36 samples.

Results

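Places held by H4K91R alone were stretches of the mouse genome where a tagged histone H4 with arginine at lysine 91 gave a peak and tagged wild-type H4 (H4WT) and the glutamine mutant H4K91Q did not. To find them, the H4WT, H4K91R and H4K91Q peaks that overlapped no peak of the empty vector were pooled, overlapping or touching peaks were merged to places, and the places built from H4K91R peaks alone were kept. This gave 16810 places of 92820 in all, or 37.7% of the 44638 places with an H4K91R peak (exact 95% interval 37.2 to 38.1). These places were selected on measured values, the presence or absence of peaks, so their lack of H4WT and H4K91Q peaks is a description and not a finding. The other places with an H4K91R peak were 20939 shared with H4WT, 4500 shared with H4K91Q and 2389 held by all 3 tagged histones.

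The data are peak lists from HA ChIP-seq, in which DNA bound by an HA-tagged protein is pulled down from sheared chromatin and sequenced. The lines were mouse embryonic stem cells stably carrying a PiggyBac transgene for triple HA-tagged H4K91R, H4K91Q or H4WT, or the empty PiggyBac vector, and their labels give no gene ablation. There was 1 pulldown per line, each called against the input of the same line, so no difference between lines has a replicate check and no p-value is given. The lists held 49155 H4K91R, 14314 H4K91Q, 69158 H4WT and 3007 empty-vector peaks, and the other 32 of the 36 samples were not analysed here. No read numbers come with the lists. The depth is therefore unknown, and the absence of a peak cannot be told apart from low depth. The lists also hold no expression values against which the cell type could be checked, and whether a line was 1 clone is not given in the sources used here. All intervals are exact 95% intervals and cover the counting of places or genes only.

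Histone H4 is a core subunit of the nucleosome, the spool of histones on which DNA is wound. Lysine 91 lies in the globular core of H4, at the surface where the H3-H4 tetramer meets the H2A-H2B dimers, and it can be acetylated or ubiquitinated. Arginine keeps the positive charge of lysine but cannot carry these marks, whereas glutamine removes the charge and resembles acetyl-lysine.

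Promoter windows met by H4K91R-alone places held fewer CpG dinucleotides than those shared with H4WT. The medians were 13 (quartiles 7 and 24) and 25 (quartiles 17 and 33). The 8 windows shown are examples picked by fold, which do not give the spread of either class, with each CpG in capitals. Each runs 5′ to 3′ from 250 bases before to 50 bases after an annotated start, in RefSeq's sequence of GRCm38.p6, the assembly also called mm10. Ptpn20 (chr14:33589020-33589319, plus strand), a tyrosine phosphatase gene, and Krt71 (chr15:101743048-101743347, minus strand), a keratin gene of the hair root sheath, were the genes among the 20 leading gene ends whose place reached the window. Hibadh (chr6:52640251-52640550, minus strand), Pdia2 (chr17:26199038-26199337, minus strand), Vwa5b2 (chr16:20589332-20589631, plus strand) and Arap1 (chr7:101394138-101394437, plus strand) were added after values were seen, as windows in which an H4K91R-alone place of high fold covered at least 100 bases.
Ptpn20: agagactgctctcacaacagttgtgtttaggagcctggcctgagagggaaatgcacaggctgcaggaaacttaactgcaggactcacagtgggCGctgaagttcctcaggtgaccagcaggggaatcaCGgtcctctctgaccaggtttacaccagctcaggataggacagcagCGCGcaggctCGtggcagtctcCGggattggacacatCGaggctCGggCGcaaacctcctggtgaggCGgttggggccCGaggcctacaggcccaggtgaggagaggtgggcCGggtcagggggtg
Krt71: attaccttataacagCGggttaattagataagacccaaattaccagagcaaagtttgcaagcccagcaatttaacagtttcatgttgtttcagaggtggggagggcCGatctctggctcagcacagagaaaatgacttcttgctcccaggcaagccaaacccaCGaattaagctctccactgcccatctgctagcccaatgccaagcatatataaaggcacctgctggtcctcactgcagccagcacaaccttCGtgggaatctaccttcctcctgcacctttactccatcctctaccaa
Hibadh: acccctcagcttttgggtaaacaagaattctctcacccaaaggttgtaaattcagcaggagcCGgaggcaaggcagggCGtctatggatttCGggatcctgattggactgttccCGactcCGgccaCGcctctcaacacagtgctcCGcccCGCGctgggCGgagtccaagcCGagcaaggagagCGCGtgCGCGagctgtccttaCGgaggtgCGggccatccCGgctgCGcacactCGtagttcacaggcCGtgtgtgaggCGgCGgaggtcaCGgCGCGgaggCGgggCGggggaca
Pdia2: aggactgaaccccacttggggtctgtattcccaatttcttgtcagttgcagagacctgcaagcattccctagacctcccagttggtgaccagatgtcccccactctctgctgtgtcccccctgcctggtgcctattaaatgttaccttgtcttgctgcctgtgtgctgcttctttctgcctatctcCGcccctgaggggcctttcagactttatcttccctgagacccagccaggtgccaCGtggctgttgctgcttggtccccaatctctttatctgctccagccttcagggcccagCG
Vwa5b2: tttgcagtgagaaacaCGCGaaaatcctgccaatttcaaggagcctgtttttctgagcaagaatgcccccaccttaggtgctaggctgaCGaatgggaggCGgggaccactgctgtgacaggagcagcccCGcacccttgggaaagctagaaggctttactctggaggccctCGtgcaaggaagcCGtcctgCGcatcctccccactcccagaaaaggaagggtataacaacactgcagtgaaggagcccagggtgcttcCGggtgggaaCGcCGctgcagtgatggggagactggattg
Arap1: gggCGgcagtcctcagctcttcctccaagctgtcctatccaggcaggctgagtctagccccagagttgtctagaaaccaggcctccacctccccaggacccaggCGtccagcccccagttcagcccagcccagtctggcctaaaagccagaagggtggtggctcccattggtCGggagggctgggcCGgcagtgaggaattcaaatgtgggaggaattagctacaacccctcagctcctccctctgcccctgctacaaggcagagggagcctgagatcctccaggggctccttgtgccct
Il3ra (chr14:14346245-14346544, plus strand) and Gng10 (chr4:59034906-59035205, plus strand) are shown for comparison, as windows with high-fold places shared by H4WT and H4K91R.
Il3ra: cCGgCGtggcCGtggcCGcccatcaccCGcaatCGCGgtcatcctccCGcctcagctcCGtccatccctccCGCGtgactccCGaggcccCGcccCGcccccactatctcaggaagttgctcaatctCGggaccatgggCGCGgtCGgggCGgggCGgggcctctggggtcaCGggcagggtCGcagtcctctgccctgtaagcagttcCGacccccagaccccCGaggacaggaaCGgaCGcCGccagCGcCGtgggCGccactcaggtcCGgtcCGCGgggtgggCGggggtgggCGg
Gng10: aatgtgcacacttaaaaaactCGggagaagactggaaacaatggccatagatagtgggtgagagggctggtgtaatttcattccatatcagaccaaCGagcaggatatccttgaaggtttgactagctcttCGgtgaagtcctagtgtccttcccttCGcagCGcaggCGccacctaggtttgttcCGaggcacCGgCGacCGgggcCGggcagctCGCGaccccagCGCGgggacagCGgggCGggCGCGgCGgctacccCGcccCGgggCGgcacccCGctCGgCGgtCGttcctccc
The 6 windows met by H4K91R alone held 3 to 28 CpG. The shared pair held 35 and 27, both above the median of 25 of their class. Hibadh, with 28 CpG and an observed-to-expected ratio of 0.92, was as rich in CpG as Gng10, at 27 and 0.93. Pdia2 and Arap1, with 3 and 4 CpG and ratios of 0.14 each, were at the other extreme.

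H4K91R-alone places were weak and narrow compared with the other H4K91R places. Their authors' fold, the enrichment over background at the summit of the peak, had a median of 5.02 and ran from 1.72 to 14.3. The median was 5.37 for H4K91R peaks shared with H4WT, 6.0 for those shared with H4K91Q and 9.51 for those common to all 3 tagged histones. A fold of 10 or more was reached by 52 H4K91R-alone places. Their median width was 236 bp, against 289, 310 and 496 bp in the other classes, and 25.6% stood at 215 bp, the least width in the H4K91R list. Together they covered 4.44 Mb, and 6000 of them (35.7%) had a −log10 q of 5 or more. Since any overlap with another tagged peak put a peak in a shared class, the rule itself favours narrow peaks here. Its part in the difference in width was not tested.

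Stronger H4K91R peaks were less often held by H4K91R alone. When the H4K91R peaks were divided into 5 equal groups by fold, 46.9% of the lowest group were H4K91R-alone places, then 45.3%, 39.4% and 30.2%, and 13.6% of the highest. Peaks shared with H4WT made up a similar part of the lowest and the highest group, at 46.2% and 44.5%, and peaks of all 3 lists made up 0.98% of the lowest and 22.8% of the highest.

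**Figure D1:**
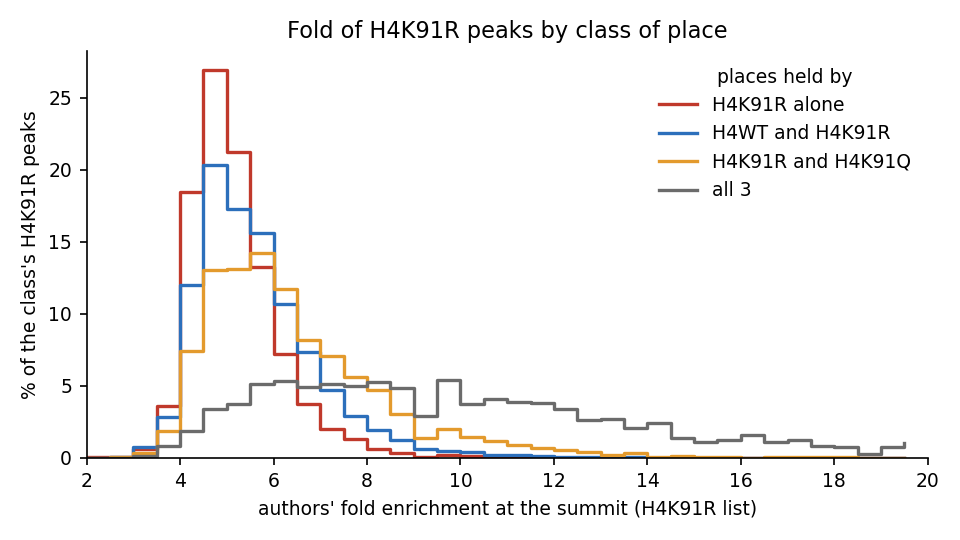
Authors' fold of H4K91R peaks (x axis, in bins of 0.5, up to 20) against the percent of peaks in each class of place (y axis), 1 line per class and 1 library. H4K91R-alone peaks have their median at 5.02 and few beyond 8, whereas peaks of all 3 lists have a median of 9.51 and run past the axis.

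By the rule, no H4K91R-alone place touched an H4WT or H4K91Q peak that was free of the empty vector. Only the size of the gap is therefore described. The median gap to the nearest H4WT peak was 7174.5 bp, to the nearest H4K91Q peak 86991.5 bp and to the nearest empty-vector peak 207118 bp. The longer the list, the shorter was the median gap, and no gaps of other H4K91R classes are given for comparison. An H4WT peak lay within 500 bp of 14.8% of them (14.3 to 15.4) and within 10 kb of 55.4% (54.6 to 56.1). No other tagged peak lay within 10 kb of 5857 places, whose median fold was 5.08, close to that of all H4K91R-alone places. Just inside the rule, 506 places had another tagged peak 1 to 50 bp away, with a median fold of 4.95. Just outside it, 661 H4K91R peaks overlapped another tagged peak by under 50 bp, with a median fold of 4.82. The removal of empty-vector peaks also shaped the set, since 184 members overlapped an H4WT peak, and 1 an H4K91Q peak, that had been left out for the empty vector. Those 184 places thus had an H4WT peak before that removal. Empty-vector peaks lay within 10 kb of 8.75% of H4K91R-alone places (8.33 to 9.19), against 12.8% of places shared with H4WT (12.4 to 13.3) and 2.27% of those shared with H4K91Q (1.85 to 2.74).

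The places were then set against protein-coding genes of RefSeq by their midpoints. Places given as outside genes can thus lie in annotated genes of other kinds. H4K91R-alone places were largely away from gene ends, a term that covers both the annotated start and the other end. Of them, 7.10% lay within 1 kb of a gene end (6.72 to 7.50), 43.1% elsewhere in a gene (42.3 to 43.8) and 49.8% outside genes (49.1 to 50.6). Places shared with H4WT had 34.4% at gene ends (33.7 to 35.0) and 19% outside (18.5 to 19.5). Places shared with H4K91Q had 1.51% at gene ends (1.18 to 1.91) and 77.3% outside (76.0 to 78.5). H4K91R-alone places thus stood between these 2 shared classes in both shares, with intervals that did not touch. Places held by all 3 tagged histones had 5.11% at gene ends (4.26 to 6.07) and 66.7% outside (64.75 to 68.6). A low gene-end share was thus not particular to places without an H4WT peak. The gene-end share of H4K91R-alone places was also above the 2.93% of genome bases that lie in such windows. Their share outside genes was below the 60.5% of bases outside.

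**Figure D2:**
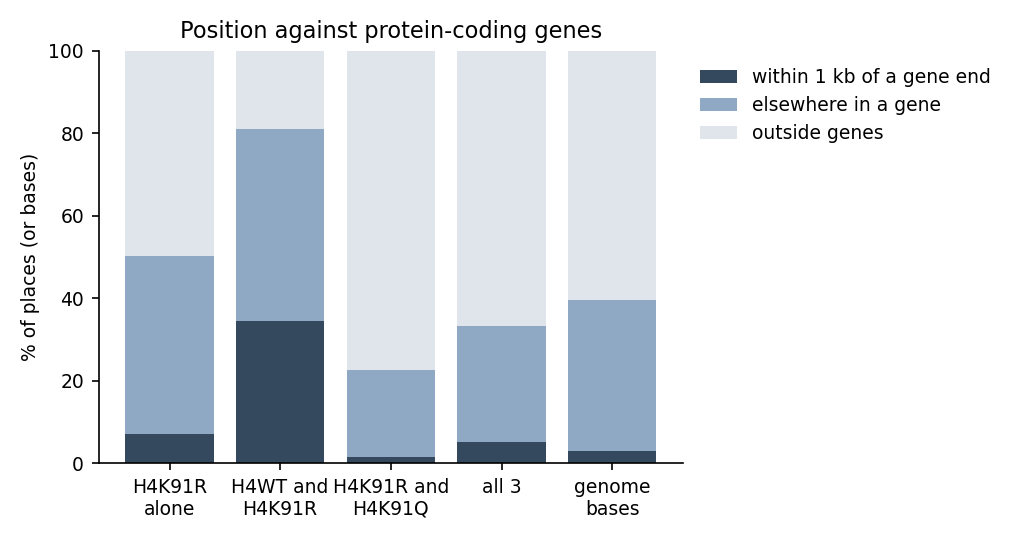
Percent of places (y axis) by position, stacked, for the 4 classes of H4K91R place, which divide the places of 1 H4K91R library. The positions are within 1 kb of a gene end, within a protein-coding gene beyond that, and outside protein-coding genes. The bases of the genome span are at the right. H4K91R-alone places have 7.10% at gene ends, against 34.4% of places shared with H4WT and 2.93% of bases.

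Read the other way, H4K91R-alone places made up 13.9% of all H4K91R places at gene ends (13.2 to 14.7), 38.9% of those elsewhere in genes (38.2 to 39.6) and 48.1% of those outside genes (47.3 to 48.8). Their fold hardly differed by position, with medians of 4.96 at gene ends, 4.94 in the rest of genes and 5.14 outside protein-coding genes.

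At like fold, H4K91R-alone places still had a smaller gene-end share than peaks shared with H4WT. In the lowest of the 5 groups of H4K91R peaks by fold, 7.79% of H4K91R-alone places lay at gene ends (7.02 to 8.61), against 36.1% of peaks shared with H4WT (34.7 to 37.5). In the highest group the shares were 4.60% (3.53 to 5.88) and 34.4% (33 to 35.9). Peaks of all 3 lists had 6.38% in the lowest group (2.38 to 13.4) and 5.28% in the highest (4.37 to 6.30). Their intervals overlapped those of H4K91R-alone places in all 5 groups. The gene-end share at like fold thus did not set H4K91R-alone places apart from places of all 3 lists. The share of H4K91R-alone places outside protein-coding genes was 45.4% in the lowest group and 63.1% in the highest. It was thus largest among the strongest of them. The gene-end share did move with list length. When the 3 tagged lists were shortened to the 14314 peaks of highest −log10 q, 17.6% of H4K91R-alone places were at gene ends, against 47.0% of those shared with H4WT and 2.22% of those shared with H4K91Q.

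**Figure D3:**
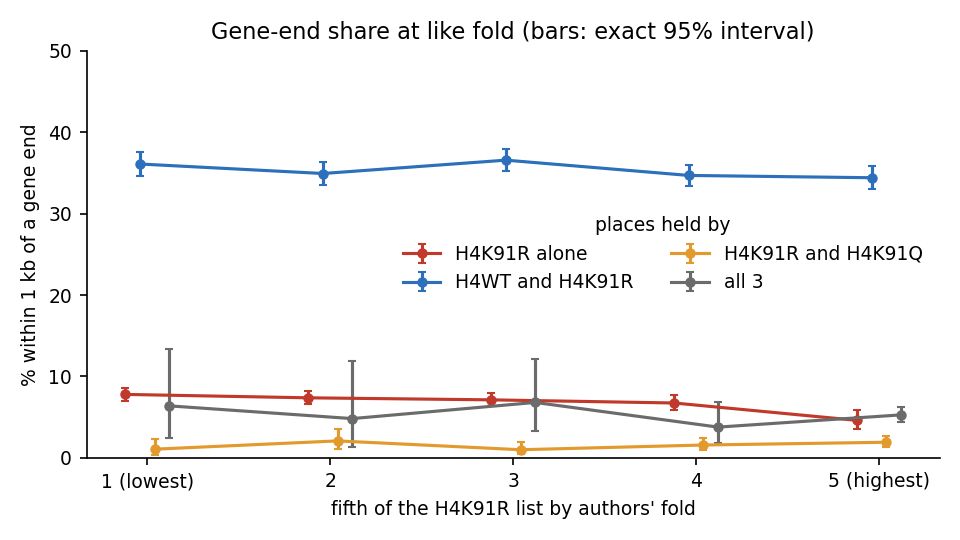
Percent of H4K91R peaks within 1 kb of a gene end (y axis) in 5 equal groups of the H4K91R list by authors' fold (x axis), 1 line per class of place, with exact 95% intervals as bars. H4K91R-alone places stay between 4.60% and 7.79%, and those shared with H4WT between 34.4% and 36.6%.

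Gene starts could be told from the other ends where a RefSeq promoter row gave the strand, which was the case for 17492 of 21887 protein-coding genes (79.9%) and for none on chromosome 18. Away from chromosome 18, 4.03% of H4K91R-alone places lay within 1 kb of a start (3.73 to 4.34), against 28.1% of places shared with H4WT (27.5 to 28.7). Within 1 kb of the other end lay 2.80% (2.55 to 3.07), against 5.17% (4.87 to 5.49). The gap between the classes was thus mainly at starts. The median distance to the nearest start was 40018 bp for H4K91R-alone places and 10099.5 bp for places shared with H4WT.

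Along genes, H4K91R-alone places did not gather at the start. Their shares in 5 equal parts of the gene, from the start onwards, were 18.3%, 15.6%, 19.3%, 19.9% and 26.9%, so the last part held the most. Places shared with H4WT had 43.2% in the first part and 20.6% in the last. Those shared with H4K91Q had 18% and 18.9%, and those held by all 3 tagged histones had 19.5% and 23.0%.

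**Figure D4:**
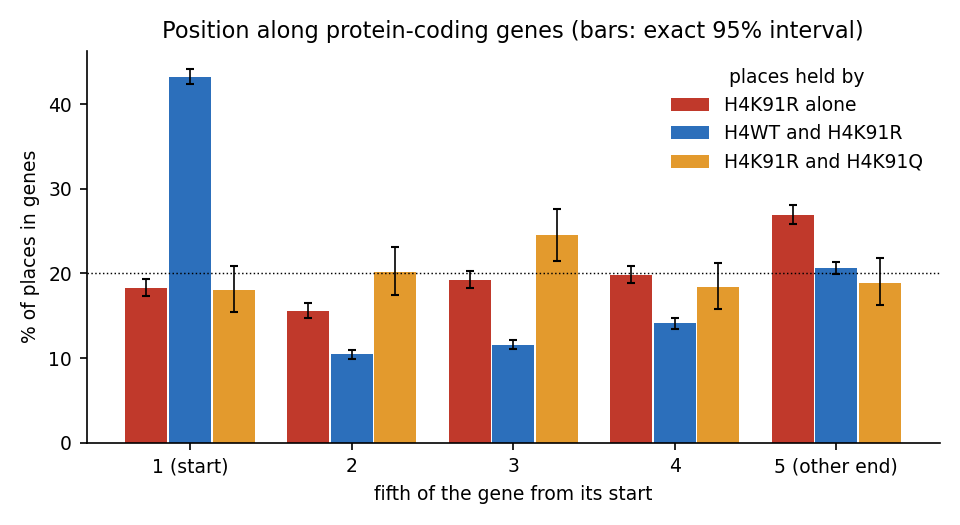
Percent of places within protein-coding genes (y axis) in each of 5 equal parts of the gene from its start (x axis), for 3 classes of H4K91R place, with exact 95% intervals; the dotted line marks equal shares. The first part holds 18.3% of H4K91R-alone places and 43.2% of those shared with H4WT, and the last part 26.9% and 20.6%.

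Genes with an H4K91R-alone place at an end were a minority, and most of them had an H4WT peak elsewhere at their ends. A place overlapped the 1 kb around an end of 1411 of 21887 protein-coding genes (6.45%). Of these genes, 996 (70.6%, 68.1 to 73.0) also had an H4WT peak at an end, 38 had an H4K91Q peak, and 407 (28.8%, 26.5 to 31.3) had neither. Among all protein-coding genes, 58.4% had an H4WT peak at an end. Of the 8286 genes with any H4K91R peak at an end, 17.0% had an H4K91R-alone place. Anywhere in the gene, a place lay in 4769 genes (21.8%), of which 3010 had 1 place and 215 had 5 or more.

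Long genes held places more often but not more densely. In the longest of 5 equal groups of genes, of median length 108.517 kb, 44.8% had an H4K91R-alone place inside, against 3.88% in the shortest group, of median length 1.542 kb. Per Mb of gene the order was the opposite, with 5.77 places in the longest group and 21.7 in the shortest. Counts of places per gene therefore have to be read against gene length.

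The place of highest fold at a gene end lay over H2ac1 and near H2bc1, neighbouring genes for testis-enriched variants of histones H2A and H2B. It spanned chr13:23934512-23934861 with a fold of 9.06, and the nearest H4WT peak was 56243 bp away. Ring1, a ubiquitin ligase of Polycomb repressive complex 1, came next with a place of fold 8.73 at its 3′ end (chr17:34020869-34021346). Ring1 differed from the histone pair, with 4 H4WT peaks and 1 H4K91Q peak at its ends and an H4WT peak 290 bp from the place. H2-Q7 and H2-Q6, neighbouring class I histocompatibility genes, had places of fold 8.59 (chr17:35439355-35439803) and 8.33 (chr17:35424985-35425357) near their starts. These genes are close copies of each other, so the assignment of reads to 1 copy is uncertain, and neither had an H4WT peak at an end. Irgc1, of the immunity-related GTPase family, had a place of fold 8.39 beyond an end and an H4WT peak of fold 16.1 at an end.

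Others among the leading gene ends with no H4WT peak at either end were Samd12 (fold 7.93), Pdlim5 (a scaffold of muscle Z-discs, 7.72), Scd1 (a stearoyl-CoA desaturase, 7.69), Ptpn20 (7.65) and Krt71 (7.63). At Ptpn20 the place chr14:33589171-33589432 covered the start and 149 bases of the window printed above, and the nearest H4WT peak was 57969 bp away. At Krt71 the place chr15:101742627-101743132 covered 85 bases of the window, and an H4WT peak lay 7535 bp away. The rest of the leading 20 each had at least 1 H4WT peak at an end. These were Col23a1 (a transmembrane collagen, fold 8.29), Fignl2 (8.18), Slc22a29 (an organic ion transporter, 7.93), F3 (tissue factor, which starts coagulation, 7.72), Abcg4 (a sterol transporter, 7.66), Tap1 (a peptide transporter of antigen presentation, 7.65), Hhipl1 (7.56), Cables1 (7.54) and Nckap1l (a blood-cell actin regulator, 7.54). Of the 20 leading genes, Ring1 alone had an H4K91Q peak at an end.

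The places of highest fold were not at gene ends. The highest lay inside Psen2, the gene of presenilin 2 of the gamma-secretase complex, at chr1:180243426-180243950 with a fold of 14.3. An H4WT peak was 402 bp and an H4K91Q peak 481 bp from it, so that it stood beside peaks of both other tagged histones. The next, of fold 13.2, lay 20655 bp from Aftph (chr11:20762251-20762625), with the nearest H4WT peak 20687 bp away. Others inside protein-coding genes were in Sez6l (fold 11.9), in Acvr2a (an activin receptor, 11.6) and in Prdm2 (a PR-domain zinc finger gene, 11.4). Acvr2a had its nearest H4WT peak 39308 bp from the place. Outside protein-coding genes, the nearest coding genes were Them4 (fold 12.8), Tyw3 (12.7), Tcte2 (11.6), Rgma (a repulsive guidance molecule, 11.4) and, on chromosome Y, the predicted gene Gm52481 (12.45). Of these places, those near Them4, Tcte2 and Rgma overlapped the other annotated genes Gm36010, 2700054A10Rik and A730056A06Rik. The places near Them4, Tcte2 and Gm52481 had an H4WT peak within 246 to 405 bp.

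Genes with the most H4K91R-alone places were large and were also rich in H4WT peaks. Gse1, a subunit gene of a histone deacetylase complex, held 26 places along 352.883 kb, with folds of 3.40 to 6.69 and a median of 4.77. Gse1 also held 216 H4WT peaks, 145 H4K91R peaks in all, 13 empty-vector peaks and no H4K91Q peak. Camta1 (a calmodulin-binding transcription activator) and Rbfox3 (the neuronal splicing factor NeuN) held 20 places each, Zfp469 19, and Prdm16 (a zinc finger regulator of brown fat and stem cells) 18. Cmip held 17, Nav2 14, Igsf21 13 and Pitpnm2 12. Per Mb of gene these 9 ranged from 21.5 places in Nav2 to 91.4 in Pitpnm2, and the H4WT list had more peaks than there were H4K91R-alone places in each of them. H4K91Q had 6 peaks in Camta1, 3 in Nav2 and none in the other 7.

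Most H4K91R-alone places stood singly. Joined across gaps of at most 12497 bp, they made 12721 runs, 9991 of which were a single place (59.4% of places), and 121 runs had 5 or more. The run of most places, 12 in 33.215 kb, lay on chromosome Y (chrY:90763857-90797071) over the pseudogene Mid1-ps1. It also held 12 H4WT and 8 H4K91Q peaks. A run of 10 lay on chromosome X over Mid1 and Erdr1 (chrX:169989587-170020454), with 15 H4WT and 12 H4K91Q peaks. Mid1 spans the boundary of the pseudoautosomal region, which X and Y share, so reads may map to either chromosome. The run of 11 on chromosome 4 (chr4:3050303-3083957) overlapped no annotated gene and held no H4WT peak and 2 H4K91Q peaks. It lay close to the start of the assembled chromosome, next to the centromere. A run of 10 at Lemd2, a nuclear envelope gene, held 23 H4WT peaks.

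Across the genome, H4K91R-alone places followed gene density less steeply than places shared with H4WT. The 2715 windows of 1 Mb were ranked by how many protein-coding genes they held and split into 5 groups of equal size. From the sparsest to the densest group, 8.93%, 10.3%, 15.0%, 24.6% and 41.1% of H4K91R-alone places were found. The densest group held 59.2% of places shared with H4WT (58.5 to 59.8) and 27.4% of those shared with H4K91Q (26.1 to 28.7). H4K91R-alone places (40.4 to 41.8) again lay between. Of places held by all 3 tagged histones, 35.8% were in the densest group (33.9 to 37.7), fewer than of H4K91R-alone places. The steepness of places shared with H4WT was thus not seen in every class with an H4WT peak. The share of H4K91R-alone places among all H4K91R places also changed. As a share of all H4K91R places, they made up 48.7% in the sparsest group (47.0 to 50.5) and 32.3% in the densest (31.7 to 32.9). The window with most places, 66, was the megabase from 122 Mb on chromosome 8, and 291 windows had none.

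By chromosome, H4K91R-alone places were densest on chromosome 17, at 9.36 per Mb, followed by chromosomes 11 (9.25), 8 (9.21) and 5 (9.21). They were sparsest on Y (0.67) and X (1.87), then on chromosomes 14 (4.50) and 3 (4.66). H4K91R places of all classes together were densest on the same chromosomes, 11 (27.17 per Mb), 8 (26.69), 17 (24.43) and 5 (23.96). Their sparsest chromosomes were likewise Y, X, 14 and 3. These extremes were thus those of the whole H4K91R list and not particular to H4K91R-alone places. On X, 52.7% of H4K91R places were held by H4K91R alone (48.7 to 56.8), above the 33.5% to 41.6% of the 19 autosomes. Across the autosomes, which share 1 library, Spearman's rho between coding genes per Mb and places per Mb was 0.74. Between coding genes per Mb and the share of H4K91R places held by H4K91R alone it was −0.62.

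Among 25 gene lists, the share of genes with a place at an end can be read against 6.45% of all protein-coding genes, and the share with a place inside against 21.8%. Potassium channel genes, which set the resting potential of excitable cells, were above both, with 12 of 92 at an end (13.0%, 6.93 to 21.7) and 40 of 92 inside (43.5%, 33.2 to 54.2). An H4K91R peak of any class at an end was also more frequent in potassium channel genes (52 of 92) than in all protein-coding genes (37.9%). So was an H4WT peak at an end (69 of 92, against 58.4%). Of those 52 genes, 12 had an H4K91R-alone place, against 17.0% of all genes with an H4K91R peak at an end. The lower limit at ends, 6.93%, lay close to 6.45%, and 25 lists were read. Whether the excess at ends is particular to H4K91R-alone places was not tested. Kcnc1, a fast voltage-gated channel, had a place of fold 5.93 at an end and an H4WT peak of fold 7.19. Kcnab1 and Kcnip1, both accessory subunits, had places of fold 5.81 and 5.80 at an end and no H4WT peak there. Per Mb of gene, potassium channel genes had 7.21 places, against 7.94 over all protein-coding genes. Density fell with gene length, to 11.3 per Mb in the next longest group of all protein-coding genes and 5.77 in the longest. The median length of potassium channel genes was 34.5 kb, and their density was not compared at like length.

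Other lists with a high share of genes with a place inside differed in their density per Mb of gene. Cell adhesion and axon guidance genes, of median length 739.85 kb, had places in 29 of 43 (67.4%, 51.5 to 80.9) but 2.26 per Mb of gene. Tenm4, a teneurin of neuronal contacts, had 7 places, and Lrp1b and Dlg2 had 4 each. These 3 were the list's genes with a place at an end, with folds of 5.15, 4.48 and 4.10 and no H4WT peak at an end. Collagens had places in 28 of 44 (63.6%, 47.8 to 77.6) and 10.5 per Mb, above the 7.94 over all protein-coding genes, led at ends by Col23a1, which had 8 places inside. Clustered protocadherins, adhesion genes with overlapping annotations, had places in 28 of 57 (49.1%, 35.6 to 62.7) and 9.50 per Mb, and neighbours can be counted for the same place. Pcdha9 and Pcdha8 had a place at an end with folds of 6.14 and 6.02 and no H4WT peak there.

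Neuronal genes had a place inside in 16 of 36 (44.4%, 27.9 to 61.9) and at an end in 5 (13.9%, 4.67 to 29.5). Their median length was 54.9 kb, and per Mb of gene they had 5.96 places, against 7.94 over all protein-coding genes. The latter value is not matched for length, since the next longest group of all protein-coding genes had 11.3 per Mb and the longest 5.77. Nrxn3, a neurexin of the synapse, had the highest fold inside, at 10.04, and no H4WT peak at an end. Chat, the acetylcholine-synthesising enzyme, had a place of fold 6.17 at an end and an H4WT peak of fold 6.85. Neural progenitor genes had a place in 8 of 36 and at an end in 2, Sox3 (fold 5.28) and Hes3 (4.19). Sox3, a SoxB transcription factor, also had 2 H4WT peaks at its ends, and Hes3, a Notch target family repressor, had none. Of the pluripotency genes, 4 of 32 had a place at an end (interval 3.51% to 29.0%). Tcl1, a kinase co-activator, had a place of fold 4.63 and no H4WT peak, whereas Esrrb, Sall4 and Lefty2 had H4WT peaks at an end beside places of fold 4.51, 4.35 and 3.77. The intervals of these last lists at gene ends all include 6.45%.

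Imprinted genes, expressed from 1 parental allele, had a place inside in 14 of 32 (43.8%, 26.4 to 62.3), or 11.04 places per Mb of gene, and at an end in 1, Kcnq1 (fold 4.55). Inside, Rtl1, a retrotransposon-derived gene, was highest at a fold of 7.56, with no H4WT peak at an end, and Usp29 and Igf2 followed at 6.87 and 5.81. Germline genes had a place at an end in 3 of 41, of which Nanos3 (fold 6.01), a translational repressor of germ cells, and Hormad2 (5.59), a meiotic chromosome protein, had no H4WT peak there. Hox genes, which pattern the body axis, had a place at an end in 4 of 39, and all 4 had an H4WT peak at an end, as did 38 of the 39. Hoxa5 and Hoxa6 had the same highest fold there, 5.16, and the same H4WT fold of 11.4. It may therefore be 1 place counted for both genes.

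Ribosomal protein genes, active in all cells, had a place at an end in 1 of 79 (1.27%, 0.03 to 6.85) and inside in 2 (2.53%, 0.31 to 8.85). None of 30 housekeeping genes had a place inside (upper limit 11.6%), whereas 2 had a place at an end (6.67%, 0.82 to 22.1), near the share of all genes. These were Tpi1 and Gapdh, both enzymes of glycolysis. Olfactory receptor genes, which are short and lie in clusters, had a place inside in 12 of 1106 (1.08%, 0.56 to 1.89) and at an end in 9. None of those 9 had an H4WT peak at an end, and 24 of all 1106 did. H4K91R peaks of any class were also rare there, at an end of 19 of the 1106. Of these 19 genes, 9 had an H4K91R-alone place, against 17.0% of all genes with an H4K91R peak at an end. Ribosomal protein genes had an H4K91R peak of any class at an end in 15 of 79. None of 18 genes of the 2-cell stage had a place (upper limit 18.5%). These lists are of short genes. Per Mb of gene, ribosomal protein genes had 7.11 places, olfactory receptors 6.14 and the housekeeping and 2-cell stage lists none, against 21.7 in the shortest group of all protein-coding genes and 19.7 in the next shortest.

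In the remaining lists the shares at ends lay between 0% and 8.88%. Vomeronasal receptors, of which 6 had any H4K91R peak at an end, had 2 of 353 (0.57%, 0.07 to 2.03), below the share of all genes. Serpins had 1 of 63 (1.59%, 0.04 to 8.53) and heterochromatin and KAP1 silencing genes none of 24 (upper limit 14.2%), with intervals that include it. Zfp zinc finger genes had 35 of 394, keratins 6 of 108, solute carriers 28 of 369, cytochrome P450 genes 5 of 93, mesoderm and endoderm genes 3 of 36, fibroblast genes 1 of 20 and replication-dependent histones 4 of 62. Of these 4 histone genes, H2ac1 and H2bc1 were counted for the same place. H1f4 and H2bc6 had the same fold, 4.79, and may also be counted for 1 place. Among histone chaperone and H3.3 genes, Daxx, which loads H3.3 at heterochromatin, and Hjurp, which loads the centromeric H3 variant, had a place at an end, with folds of 5.16 and 3.16, and both had H4WT peaks there. Zfp951 held a place of fold 10.2 inside, and Dnmt3a, a DNA methyltransferase, held 2 with folds up to 5.00.

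At promoters, the letters of RefSeq's 300-base windows could be read for 21238 starts of protein-coding genes. H4K91R-alone places overlapped 278 of these windows (1.31%) and places shared with H4WT 4802 (22.6%); a window can meet places of several classes. The ratio of CpG observed to that expected from the window's C and G was 0.6 or more in 45.7% of windows met by H4K91R alone (39.7 to 51.7), against 79.1% of those shared with H4WT (77.9 to 80.2). It was so in 26.4% of windows that met no tagged place (25.7 to 27.2) and in 47.7% of all windows. Promoters met by H4K91R alone were thus near the whole set in CpG, and below those shared with H4WT. Their median GC content was 59.3%, against 66.0% in windows shared with H4WT. The letters TATAAA, searched on both strands at any position, were in 7.55% (4.74 to 11.3), against 4.96% (4.36 to 5.61) and 18.2% (17.5 to 18.9), and in 12.6% of all windows. Of the printed windows, that of Krt71 holds these letters.

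**Figure D5:**
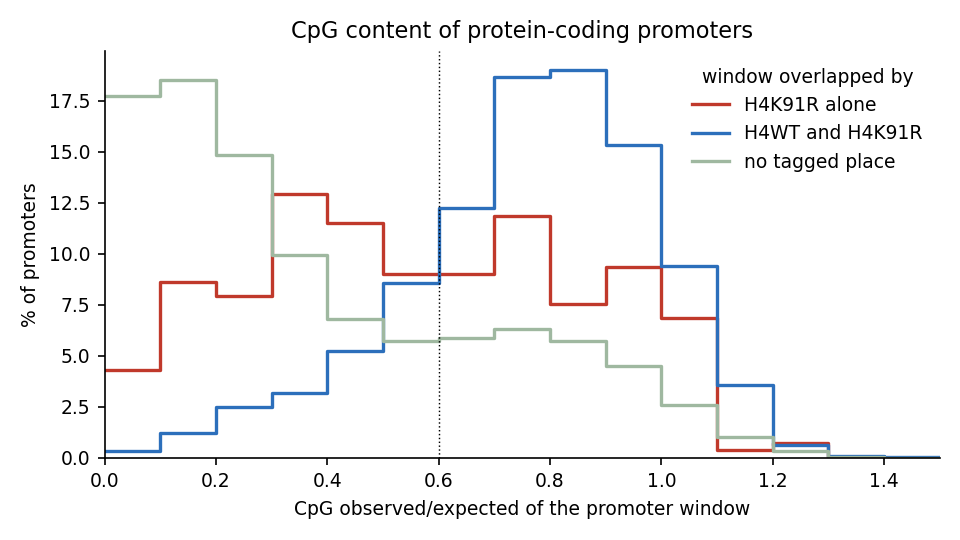
CpG observed-to-expected ratio of 300-base promoter windows (x axis, bins of 0.1) against the percent of windows (y axis), for windows met by H4K91R-alone places (278), by places shared by H4WT and H4K91R (4802) and by no tagged place (12243); the dotted line is at 0.6. Windows met by H4K91R alone spread over the whole range, with 45.7% at or past the line.

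Genes that make no protein were also met. H4K91R-alone places overlapped 1250 of 12727 long non-coding RNA genes, and 8.94% of the places did so (8.51 to 9.38), against 9.94% of places shared with H4WT (9.54 to 10.4). Pseudogenes were overlapped by 1.54% (1.36 to 1.74), against 1.20% (1.06 to 1.36). MicroRNA genes differed more, with 13 of 1228 overlapped by H4K91R-alone places (1.06%), against 105 by places shared with H4WT (8.55%). None of 408 transfer RNA genes met an H4K91R-alone place, and 5 met a place shared with H4WT. Of 1005 RefSeq hairpins, 12 met an H4K91R-alone place. Of these, Mir137, a microRNA of neuronal maturation, was chosen after its values were seen. Its hairpin (chr3:118433857-118433929, plus strand) lay inside a place of fold 5.18 at chr3:118433735-118433964, with an H4WT peak 400 bp away. Both mature arms are given, with the seed, bases 2 to 8, in capitals.
mmu-miR-137-5p: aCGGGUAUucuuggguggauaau
mmu-miR-137-3p: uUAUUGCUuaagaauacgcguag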

How the data were processed

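Each of the 36 samples was grouped by its title, and 4 anti-HA pulldowns of embryonic stem cells entered the work, 1 per group. Peaks were called with MACS2 on mm10, per the submitters' processing notes, each pulldown against its line's input according to the peak names. Not given in the sources used here are the aligner, the version of MACS2 and its q threshold. In 100% of peaks the deposited score equals 10 times the −log10 q, rounded down. The authors' fold, a ratio of signal to background at the summit, and the authors' −log10 q were used to describe, rank and shorten lists. The deposited −log10 p was not used. Depth is unknown.

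Peaks overlapping an empty-vector peak by 1 bp or more were removed, and the rest were merged where they overlapped or touched. Genes came from the RefSeq table of GRCm38.p6 (21887 protein-coding genes on the named chromosomes). A place was located by its midpoint, and a gene counted where a place overlapped it or the 1 kb around either end. Intervals are Clopper-Pearson. Of 380 list symbols asked for, 374 matched, and 13 of the 25 lists were defined by symbol pattern.

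The rule for named genes took the 20 gene ends of highest fold, the 10 genes with most places, the 10 places of highest fold, up to 3 genes per list at ends and inside, the 5 runs of most places and the 4 chromosomes at either extreme, passing over predicted genes. Some genes and 1 run picked by this rule are not reported here. Genes beyond this were named after their values were seen. The members and lists were chosen with earlier results of these data known. The merging and location steps were tested on simulated places: 100% of 353 planted H4K91R-alone places and 100% of 3000 positions were recovered. Python 3.11.15, pandas 2.3.3, numpy 2.4.6 and scipy 1.17.1 were used. Alternatives changed the peak lists, the overlap needed, the gene window and the gene set.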

Additional observations from a re-analysis of the deposited data

How the results depend on the processing

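No paired analysis was possible because each group had 1 library and no replicate numbers. Of 98 values recomputed for 11 results under other settings, 41 stayed within the interval of the reported value, or within 1.5 times it for a count, and 57 did not; counting intervals are narrow here, so small shifts pass them. With a −log10 q of 5 or more in all 4 lists there were 7952 H4K91R-alone places, 32.3% of H4K91R places, with 8.06% at gene ends, 39.8% in the rest of genes and 52.2% outside, a median width of 282 bp and fold of 5.91, at an end of 771 genes and in 2791. With that limit on the H4K91R list alone there were 6000 places (24.9%), with 40.2% elsewhere in genes and 52.7% outside, medians of 274 bp and 5.81, at an end of 535 genes and in 2220. Tagged lists of 14314 peaks each gave 5482 places (41.2%), with 17.6% at gene ends, 40.9% elsewhere in genes, 41.5% outside, 44.7% in the gene-densest and 7.66% in the gene-sparsest windows, medians of 344 bp and 6.86, and 2591 genes with a place inside. The H4WT list cut to the 49155 peaks of the H4K91R list gave 44.4% of H4K91R places, with 8.50%, 44.1% and 47.4% by position, 42.8% and 8.37% in the densest and sparsest windows and a median of 239 bp. An overlap of 50% of the shorter peak gave 42.0%, with 8.75% at gene ends, 47.7% outside, 42.7% in the densest windows and a median of 238 bp. Peaks within 500 bp counted as shared gave 33.6%, with 5.68%, 41.9% and 52.4% by position, 38.2% and 9.83% in the densest and sparsest windows, and 895 genes with a place at an end. Keeping empty-vector peaks gave 36.7%. Windows of 500 bp gave 4.27% at gene ends, 45.2% elsewhere in genes and 894 genes, and windows of 2 kb 11.9%, 39.6%, 48.5% outside and 2204 genes. All annotated genes in place of protein-coding ones gave 12.2%, 46.9% and 40.9%. In each of the 4 shortened or filtered sets of lists the gene-end share of H4K91R-alone places stayed below that of places shared with H4WT, which was 35.98% to 47.0%. The GC content of the places was planned and not run, since no genome was used here. The cause of these shifts was not tested. Unknown depth limits every absence of an H4WT or H4K91Q peak.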
